A study of Mus musculus with 6 samples.

Results

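The enzymes that add or remove acetyl and methyl groups on histones were examined in muscle stem cells (MuSCs) with and without *Sirt6*. Protein-coding genes outside chromosome Y were taken by symbol, namely the numbered *Hdac*, *Kat*, *Kdm*, *Kmt* and *Setd* genes with *Setdb1* and *Setdb2*, joined by *Ep300*, *Crebbp*, *Ezh1*, *Ezh2*, *Suv39h1*, *Suv39h2*, *Ehmt1*, *Ehmt2*, *Dot1l*, *Nsd1* and *Ash1l*. This gave 65 of 25166 genes in the expression table. The symbol alone decided which genes entered, but the set was proposed with earlier results of these data known. Of the matching names, 3 were left out, since *Kdm5d* lies on chromosome Y, *Kat2b-ps* is a pseudogene and *Kdm6bos* is an antisense transcript.

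RNA-seq was done on freshly isolated MuSCs from C57BL/6 mice, with 3 libraries of Sirt6mKO and 3 of control, each from 100 to 200 FACS-sorted cells. In Sirt6mKO mice, constitutive Cre recombinase expressed from the *Pax7* promoter (Pax7-ICN) deletes floxed exons 4 to 6 of *Sirt6*, a nuclear deacetylase of histone H3. The reporting summary also names a YFP reporter strain in the cross that gave these mice. The paper sorted MuSCs by surface antibodies or by reporter fluorescence, and does not state which was used for each group here. The supplementary legend describes the controls as Cre-negative *Sirt6* fl/fl mice and gives an age of 12 weeks, whereas the labels call the controls wild type. The presence of Cre and the loss of *Sirt6* therefore cannot be told apart, and deletion follows the whole *Pax7* lineage, myofibers included.

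Histone acetyltransferases place acetyl groups on lysines, which loosens chromatin and recruits bromodomain proteins, and histone deacetylases (HDACs) remove them. Histone methyltransferases mark single lysines with opposite outcomes, as methylation of H3K4 and H3K36 accompanies active genes whereas methylation of H3K9 and H3K27 accompanies silent ones. In skeletal muscle, class IIa HDACs bind MEF2 transcription factors and hold back muscle genes, and the polycomb enzymes EZH1 and EZH2 deposit H3K27 methylation during the change from proliferating to differentiated cells.

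Only *Hdac5* among these enzymes differed between Sirt6mKO and control MuSCs past the adjusted p of 0.05, with a 1.88-fold higher signal in Sirt6mKO. *Hdac4* and the H3K36 methyltransferase *Nsd1* had lower signals in every Sirt6mKO library than in any control library but missed the threshold. The acetyltransferases *Ep300* and *Crebbp* had almost the same mean signal in both groups. Since *Hdac5* and *Hdac4* carry the clearest contrast within 1 enzyme class, their promoter sequences are shown first.

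These windows run from 250 bases before to 50 bases after a start annotated by RefSeq on GRCm38.p6. The window of *Hdac5* spans chr11:102230123-102230422 and that of *Hdac4* spans chr1:92180292-92180591, both on the minus strand. The *Hdac4* window surrounds a start inside the GENCODE span of that gene, which reaches further upstream through another transcript, and the sequence at that outer start was not searched. Each is written 5′ to 3′ on its own strand, and capitals mark a match to the MEF2 consensus.
Hdac5: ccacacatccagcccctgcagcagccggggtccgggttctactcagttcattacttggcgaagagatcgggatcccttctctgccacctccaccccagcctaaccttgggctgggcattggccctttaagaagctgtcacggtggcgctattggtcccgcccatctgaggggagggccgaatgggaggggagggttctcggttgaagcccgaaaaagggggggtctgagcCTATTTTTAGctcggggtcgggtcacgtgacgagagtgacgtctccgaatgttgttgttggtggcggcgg
Hdac4: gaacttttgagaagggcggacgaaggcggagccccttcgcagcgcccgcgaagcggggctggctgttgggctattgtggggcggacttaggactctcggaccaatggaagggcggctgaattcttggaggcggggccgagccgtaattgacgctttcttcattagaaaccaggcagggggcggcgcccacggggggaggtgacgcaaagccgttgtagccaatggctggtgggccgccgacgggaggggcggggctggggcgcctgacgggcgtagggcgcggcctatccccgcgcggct

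The match in *Hdac5* lies 20 to 11 bases before the annotated start, and the *Hdac4* window around its RefSeq start holds none. The MEF2 consensus reads the same on both strands, so 1 search covers both. It was found in the window of 1 of the 51 enzymes with an entry in the promoter table, and in that of 172 of 27025 genes overall (0.636%), which is 183 of 32851 windows (0.557%). The motif was picked after the expression values were seen, and a match of letters is a description, not a binding site. Both windows are rich in G and C, at 60.7% for *Hdac5* with 18 CpG and 68.0% for *Hdac4* with 32 CpG.

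All values are the deposited signal, which is the reads of a gene divided by 1 size factor per library and rounded. The libraries hold 1267027 to 3209958 reads, recovered from the steps between the values, so that a single read is worth 0.729 to 1.792 units of signal. Control replicate 3 is the shallowest library and control replicate 2 the deepest. *Pax7*, which defines MuSCs, had a signal of 1841, 2307 and 1810 in Sirt6mKO replicates 1 to 3 and of 4066, 3449 and 3150 in control replicates 1 to 3, and fell by 0.84 on the log2 scale (limma-trend, adjusted p = 0.0041). The gene-level signal of *Sirt6* was 19, 20 and 13 against 18, 17 and 20, which cannot check the labels because only the floxed exons are lost. The summed signal of 10 MuSC markers, *Pax7* among them, was 14308 to 14892 in Sirt6mKO and 15887 to 17194 in control. At the adjusted p, 1 of the 10 was higher and 1, *Pax7* itself, was lower. Libraries came from separate samples by their labels, and p-values measure the spread between these samples. In bulk RNA of this kind, fewer cells of a type and less RNA per cell cannot be told apart. Cre is expressed from the *Pax7* promoter and, by the supplementary legend, is absent from the controls. An effect of this allele on *Pax7* therefore cannot be told apart from these either.

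MuSCs expressed nearly the whole set of enzymes. A mean signal of at least 5, the limit for testing, was reached by 63 of 65, and 47 had a mean signal of at least 100. *Hdac9*, a class IIa deacetylase, was listed at 1, 1 and 1 in Sirt6mKO and at 0, 1 and 0 in control, which is at most 1 read per library. *Kdm4d*, an H3K9 demethylase of the KDM4 family, was listed at 0, 0 and 4 against 1, 1 and 4, at most 4 reads. Neither was tested.

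Levels of different genes were compared as control signal per kilobase of exon. *Kmt2e*, a SET and PHD domain protein named as an H3K4 methyltransferase but not known as an active one, had the highest level at 120 ± 23.6 per kilobase (SD, n = 3). The H3K36 methyltransferases followed, with *Nsd1* at 112 ± 2.6, *Ash1l* at 112 ± 16.3 and *Setd2* at 104 ± 11.4. The library ranges of these neighbours overlap, so their order was not resolved. *Kat6a*, a MYST acetyltransferase, stood at 95.2 ± 3.64 and *Crebbp* at 89.8 ± 1.54.

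Within families the levels were unequal. *Crebbp* exceeded its paralog *Ep300*, which stood at 46.5 ± 4.13 per kilobase. *Ezh1* at 58.2 ± 2.78 exceeded *Ezh2* at 19.0 ± 4.14, and the ratio of *Ezh1* to *Ezh2* per kilobase was 2.57 to 3.73 in control and 2.52 to 3.35 in Sirt6mKO. EZH2 is the form of dividing cells and EZH1 that of resting ones, and these overlapping ratios give no difference between the groups. Among class IIa deacetylases *Hdac4* dominated with 50.1 ± 1.73 per kilobase, against 10.1 ± 0.634 for *Hdac5* and 4.24 ± 1.13 for *Hdac7*. Class I was carried by *Hdac2* at 66.8 ± 8.15 and *Hdac1* at 58.5 ± 5.63, followed by *Hdac3* at 42.0 ± 4.14 and, much lower, *Hdac8* at 5.44 ± 0.932. With the length of the longest transcript in place of all exons, the order changed. *Kmt2e* stood at 171 per kilobase, followed by *Setd5* at 169, which is at 62.3 over all exons, and *Nsd1* at 153, and *Hdac1* at 99.0 passed *Hdac2* at 91.9.

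**Figure D1:**
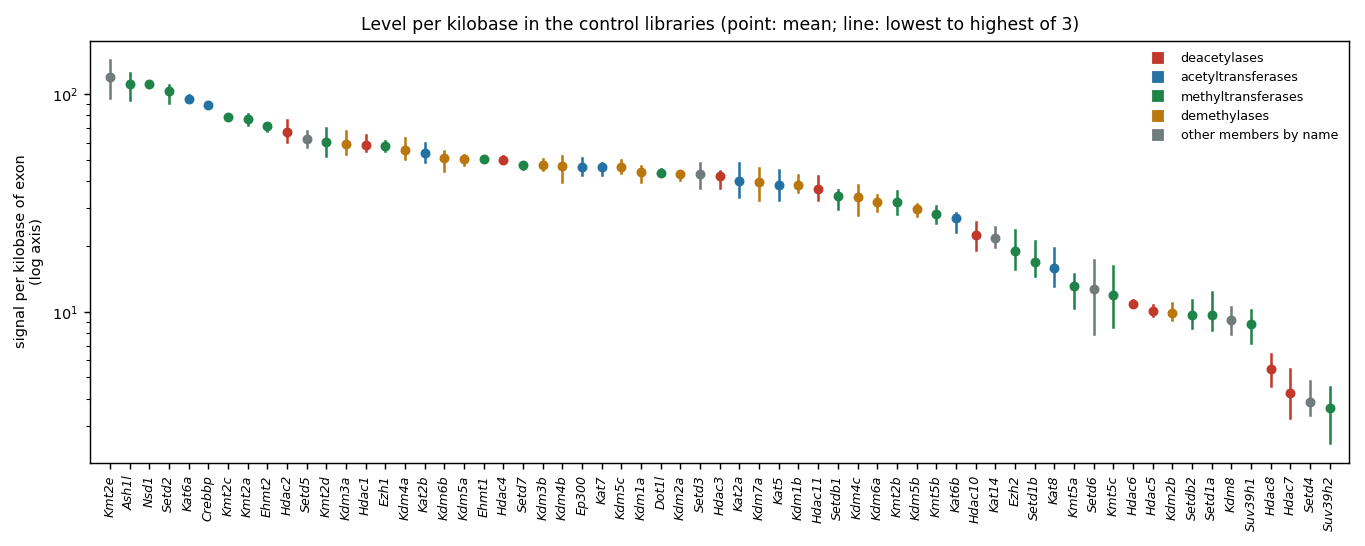
Control signal per kilobase of exon (log axis) of the 63 tested enzymes in falling order, with points for the mean and lines from the lowest to the highest of 3 control libraries, coloured by activity. *Kmt2e*, *Ash1l*, *Nsd1* and *Setd2* lie above 100 per kilobase in the mean, with ranges that overlap, and *Hdac5* and *Hdac7* lie well below *Hdac4*.

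The comparison of Sirt6mKO with control was fitted with limma-trend on log2(signal + 1) over the 14227 genes whose signal averaged at least 5. No enzyme passed both the adjusted p of 0.05 and a 2-fold change, with limma-trend or with voom, whereas 2.59% of all tested genes did with limma-trend (1.57% higher and 1.02% lower). At the adjusted p alone, 1 of 63 was higher (1.59%) and 0 were lower, against 4.52% of all tested genes, of which 2.64% were higher and 1.88% lower. At an unadjusted p under 0.05 there were 10 (15.9%), 3 higher and 7 lower, against 18.1% of all tested genes. The 3 were *Hdac5*, *Kmt2e* and *Kdm4c*, and the 7 were *Nsd1*, *Hdac4*, *Kdm8*, *Setd4*, *Dot1l*, *Kmt5a* and *Setd7*. The shares called lay below those of all tested genes at each of these limits, but such small counts do not set the enzymes apart.

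The 3 Sirt6mKO libraries all lay above or all below the 3 controls for 15 of 63 enzymes (23.8%), close to the 21.2% of all tested genes. *Hdac5*, *Kmt2e*, *Kdm4c*, *Kmt2c* and *Suv39h1* were higher in this sense (7.94% against 11.1% of all tested genes). *Nsd1*, *Hdac4*, *Kdm8*, *Setd4*, *Dot1l*, *Kmt5a*, *Setd7*, *Kdm1a*, *Hdac6* and *Kat14* were lower (15.9% against 10.1%). An exact two-sided permutation test of 1 gene cannot go below p = 0.1 with 3 libraries against 3, and each of these genes has that value.

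Most differences were small. The log2 difference was above 0 for 24 enzymes and below 0 for 39, whereas 50.4% of all tested genes were above 0. Its median was -0.05 for the enzymes, against 0.0019 for all tested genes. The median of the enzymes was 0.0018 without Sirt6mKO replicate 3 and -0.11 without Sirt6mKO replicate 2. Without regard to sign, the median size of the log2 difference was 0.14 for the enzymes and 0.22 for all tested genes. The enzymes have higher signals, however, with a median of 268 against 54. Where the signal averaged 100 or more, the same medians were 0.13 and 0.14. For 60 of the 62 enzymes that were not called, the 95% interval of the difference stayed within 2-fold in both directions, and for 44 within 1.5-fold.

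**Figure D2:**
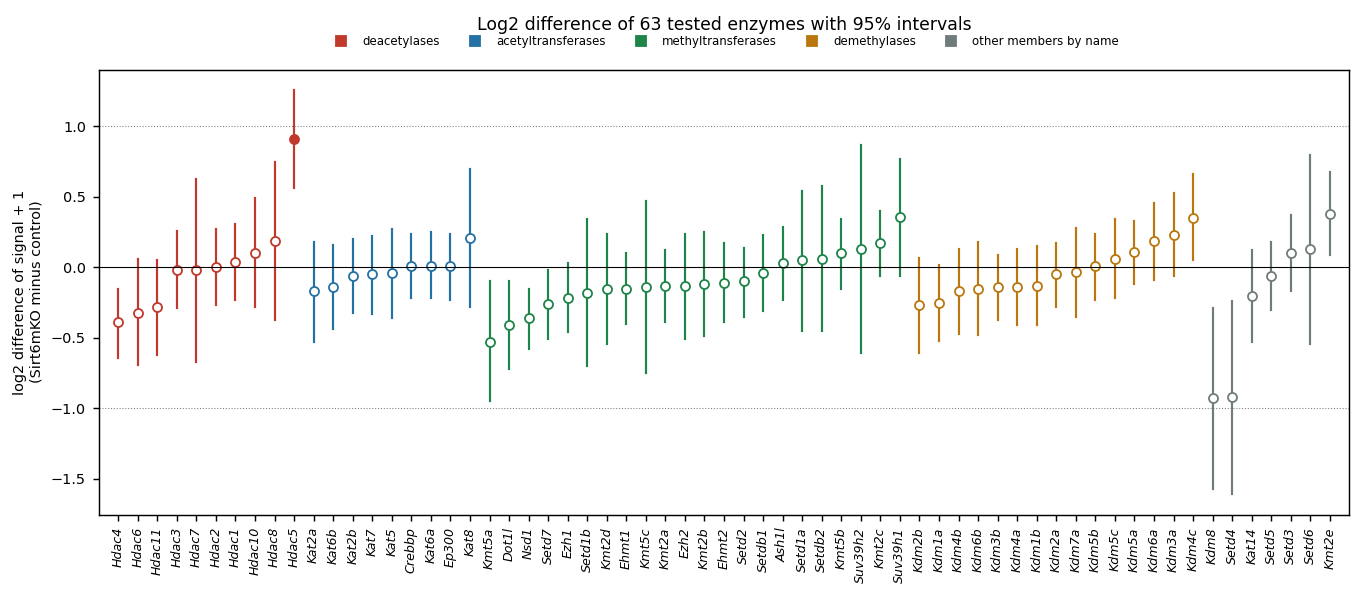
Log2 difference (Sirt6mKO minus control) of the 63 tested enzymes with 95% intervals, grouped by activity, and dotted lines at 2-fold. *Hdac5* is the filled point, the only one past the adjusted p of 0.05, and the intervals of *Kdm8* and *Setd4* are the only ones of uncalled enzymes that reach beyond 2-fold.

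Among the deacetylases, which remove acetyl groups from histones and other proteins, *Hdac5* rose. *Hdac5* (ENSMUSG00000008855, GRCm38 chr11:102194432-102230166, minus strand) encodes a class IIa HDAC that shuttles between nucleus and cytoplasm and represses MEF2. Sirt6mKO replicates 1 to 3 had a signal of 134, 201 and 176, and control replicates 1 to 3 had 95, 88 and 84. Every Sirt6mKO library was above every control library, and the Sirt6mKO values were the more scattered. The means were 170.3 ± 33.9 and 89.0 ± 5.6 (SD, n = 3), a log2 difference of 0.91 ± 0.16 (SE) with a 95% interval from 0.56 to 1.26 and an adjusted p of 0.0075 by limma-trend, which ranged from 0.0048 to 0.055 over the alternatives. Without Sirt6mKO replicate 2 the difference was 0.78 and the adjusted p 0.055, and without Sirt6mKO replicate 1 it was 1.07, past 2-fold.

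RNA of other cells differed between the libraries too. The summed signal of 10 myofiber markers was 1973, 2163 and 712 in Sirt6mKO and 595 to 708 in control, with 2 of 10 higher at the adjusted p. That of 5 tenocyte markers was 60, 1045 and 397 against 49 to 71, and that of 10 fibroblast markers was 9467 to 11563 against 6561 to 10220, with 3 of 7 tested markers higher. The 6 endothelial markers in the table summed to 373 to 450 against 467 to 573. Of these 6, only 2 were tested and none passed the adjusted p. The mural, Schwann and immune sums overlapped between the groups. None of the myofiber, tenocyte and fibroblast markers was at 0 in all libraries. Sirt6mKO replicate 2 had the highest myofiber and tenocyte sums and the highest *Hdac5* signal of all libraries, 201. In replicate 3, where the myofiber sum was 712, *Hdac5* was at 176, and in replicate 1, where the tenocyte sum was 60, it was at 134. The part of such RNA in the *Hdac5* difference was not tested. Without replicate 3 the log2 difference of *Hdac5* was 0.88 (limma-trend, adjusted p = 0.032).

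*Hdac4* (ENSMUSG00000026313, GRCm38 chr1:91928779-92195699, minus strand), the dominant class IIa gene, had a signal of 567, 686 and 564 in Sirt6mKO and of 824, 781 and 773 in control. The groups did not overlap, in the direction opposite to *Hdac5*. The log2 difference was -0.39 ± 0.11 (SE, 95% interval -0.64 to -0.15), with an adjusted p of 0.070 by limma-trend and of 0.05 to 0.26 over the alternatives. The ratio of *Hdac5* to *Hdac4* per kilobase was 0.426, 0.528 and 0.562 in Sirt6mKO and 0.208, 0.203 and 0.196 in control. *Hdac4* nevertheless kept the higher level of the pair in every library. The ratio was examined because both genes stood out, so it carries no test. The summed signals of MuSC and endothelial markers were lower in Sirt6mKO as well. Most of the gap in the MuSC sum was *Pax7* itself, with means of 1986.0 in Sirt6mKO and 3555.0 in control. Only *Pax7* among these markers was lower at the adjusted p, and 1 of the 10 MuSC markers was higher. The part of MuSC and endothelial RNA in the *Hdac4* values was not tested. *Hdac7*, the third measured class IIa gene, overlapped widely at 29, 38 and 19 against 37, 22 and 27, a log2 difference of -0.02 with a 95% interval from -0.67 to 0.63.

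The class I deacetylases, of which HDAC1, HDAC2 and HDAC3 are catalytic subunits of the NuRD, SIN3, CoREST or NCoR corepressors, showed no such contrast. *Hdac2* had a signal of 315, 268 and 311 in Sirt6mKO and of 271, 340 and 285 in control, a log2 difference within ± 0.27 (95% interval). *Hdac1* and *Hdac3* had log2 differences of 0.04 and -0.02. *Hdac8* was thin, at 24, 37 and 30 against 26, 31 and 22. Among the rest, *Hdac6*, mainly a tubulin deacetylase, was at 47, 54 and 51 against 63, 61 and 66, with separate groups but an adjusted p of 0.37 by limma-trend. *Hdac10*, mainly a polyamine deacetylase, had a log2 difference of 0.10. *Hdac11*, the class IV enzyme, had a log2 difference of -0.28 with overlapping groups. Summed per kilobase, the 11 deacetylases came to 297 to 301 in Sirt6mKO and to 296 to 314 in control.

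The acetyltransferases had the narrowest range of differences among the 4 activities, but with 9 also the fewest tested genes. *Ep300* (ENSMUSG00000055024, GRCm38 chr15:81585351-81652077, plus strand), a coactivator that acetylates H3K27 and H3K18, had a signal of 635, 702 and 656 in Sirt6mKO and of 654, 609 and 726 in control. *Crebbp*, its paralog, was at 1125, 1333 and 1217 against 1192, 1222 and 1232. The groups overlapped for both genes, with log2 differences of 0.01, and the 95% intervals from -0.23 to 0.24 and from -0.22 to 0.24 lie within 1.5-fold in both directions. The signs are not stable, since both turn slightly negative with upper quartile scaling and with log2 CPM.

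The GNAT enzymes *Kat2a* and *Kat2b*, catalytic subunits of the SAGA and ATAC coactivators, had log2 differences of -0.17 and -0.06. In the MYST family, which acetylates H4 and H3, the differences ran from -0.14 for *Kat6b* to 0.21 for *Kat8*, with *Kat5* at -0.04 and *Kat7* at -0.05. *Kat6a*, the most abundant, was at 865, 974 and 816 against 911, 865 and 846. No acetyltransferase had separate groups, against 21.2% of all tested genes, but with 9 tested this does not set them apart. The 9 genes summed to 427 to 476 per kilobase in Sirt6mKO and 440 to 460 in control, and their median log2 difference was -0.04.

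Methyltransferases were the activity with the lowest median, at -0.13 over 22 genes, 15 of them below 0. None passed the adjusted p, and 6 of the 22 had separate groups. That share is somewhat above the 21.2% of all tested genes, but so small a count does not set them apart. Their summed level per kilobase overlapped, at 864 to 1000 in Sirt6mKO and 954 to 1040 in control.

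*Nsd1* (ENSMUSG00000021488, GRCm38 chr13:55209782-55318325, plus strand) places H3K36 dimethylation and was one of the highest of all the enzymes. The Sirt6mKO libraries had a signal of 1499, 1523 and 1540, the controls of 1944, 1915 and 2004. The gap between the groups was far wider than the spread within either, with means of 1520.7 ± 20.6 and 1954.3 ± 45.4 (SD, n = 3). The log2 difference was -0.36 ± 0.10 (SE, 95% interval -0.58 to -0.15), and limma-trend, which shares the spread between genes, gave an adjusted p of 0.060. It passed with robust empirical Bayes (adjusted p = 0.049), voom on recovered reads (0.039) and a GC trend removed (0.049), and was at 0.099 to 0.20 with 1 library left out. *Setd2*, which places H3K36 trimethylation, was at 1001, 1097 and 1012 against 1190, 977 and 1188 with overlap, and *Ash1l* had a log2 difference of 0.03.

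The H3K27 methyltransferases of polycomb repressive complex 2 (PRC2) did not pass the test. *Ezh1* (ENSMUSG00000006920, GRCm38 chr11:101191115-101226463, minus strand) had a signal of 342, 411 and 368 in Sirt6mKO and of 411, 436 and 452 in control. The highest Sirt6mKO library equals the lowest control. The log2 difference was -0.22 ± 0.11 (SE, 95% interval -0.46 to 0.03), with an adjusted p of 0.35 by limma-trend. *Ezh2* overlapped throughout at 103, 110 and 131 against 118, 105 and 158, a log2 difference of -0.13.

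Among the H3K4 methyltransferases, which mark promoters and enhancers, *Kmt2c* had separate groups at 1700, 1945 and 1726 against 1625, 1584 and 1560, but a log2 difference of only 0.17 (adjusted p = 0.44, limma-trend). *Setd7*, which monomethylates H3K4 and many other proteins, was at 381, 449 and 456 against 529, 518 and 493, a log2 difference of -0.26 (adjusted p = 0.23, limma-trend). *Kmt2a*, *Kmt2b*, *Kmt2d*, *Setd1a* and *Setd1b*, the catalytic subunits of COMPASS complexes, overlapped between the groups, with log2 differences from -0.18 for *Setd1b* to 0.05 for *Setd1a*. Of the 6 H3K9 methyltransferases, which act in heterochromatin, *Suv39h1* alone had separate groups, at 61, 56 and 60 against 38, 47 and 54. *Ehmt2*, the most abundant of them, was at 379, 415 and 305 against 402, 403 and 371, and its partner *Ehmt1* had a log2 difference of -0.15. *Setdb1*, which silences retroelements, was at -0.04, *Setdb2* at 0.06 and the thinly covered *Suv39h2* at 0.13.

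*Dot1l*, the only H3K79 methyltransferase, had a signal of 294, 347 and 229 in Sirt6mKO and of 394, 378 and 367 in control. All Sirt6mKO values were lower, with replicate 3 the lowest, and the log2 difference was -0.41 ± 0.14 (SE) with an adjusted p of 0.15 by limma-trend. *Kmt5a*, which monomethylates H4K20 in dividing cells, was at 52, 42 and 49 against 79, 55 and 75, a log2 difference of -0.53 ± 0.20 (SE) with an adjusted p of 0.17 by limma-trend. *Kmt5b*, which adds further methyl groups to H4K20, had a log2 difference of 0.10.

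**Figure D3:**
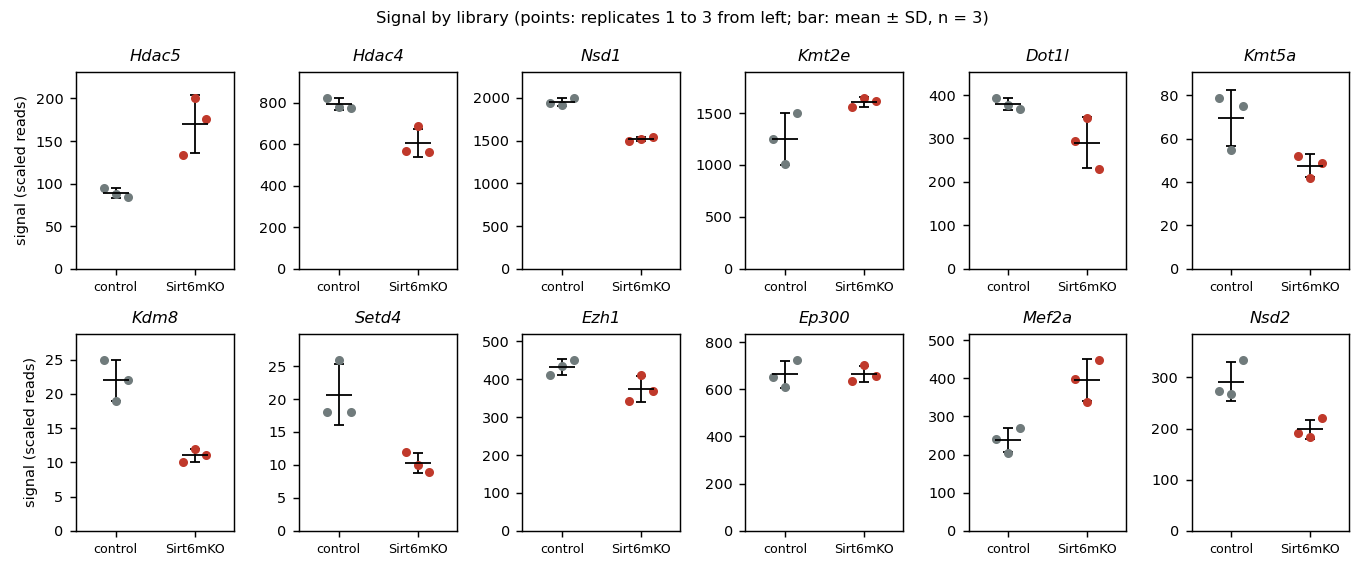
Signal by library for 10 of the enzymes and for *Mef2a* and *Nsd2*, with points for replicates 1 to 3 from left in each group and bars for mean ± SD (n = 3), each axis starting at 0. *Hdac5*, *Kmt2e* and *Mef2a* lie higher in all Sirt6mKO libraries, *Hdac4*, *Nsd1*, *Dot1l*, *Kmt5a*, *Kdm8*, *Setd4* and *Nsd2* lie lower in all of them, and *Ep300* and *Ezh1* overlap or tie.

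The demethylases, which undo methyl marks by a flavin reaction (the LSD type) or with iron and 2-oxoglutarate (the JmjC type), included no gene past the adjusted p among 15 tested, and their median log2 difference was -0.05. *Kdm1a*, also called LSD1, was at 176, 200 and 197 against 204, 238 and 242, with separate groups and a log2 difference of -0.25 (adjusted p = 0.31, limma-trend). Its paralog *Kdm1b* overlapped at -0.13. *Kdm4c*, an H3K9 and H3K36 demethylase, was at 235, 245 and 274 against 207, 223 and 163, also separate, with 0.35 (adjusted p = 0.20, limma-trend).

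The H3K27 demethylases, which counter EZH1 and EZH2, overlapped between the groups. *Kdm6a* had a log2 difference of 0.19 and *Kdm6b* of -0.15. The 3 H3K4 demethylases *Kdm5a*, *Kdm5b* and *Kdm5c* lay between 0.01 and 0.11. *Kdm3a*, a hypoxia-inducible H3K9 demethylase and the most abundant of its group per kilobase of all exons, though not of the longest transcript (*Kdm3b* 105, *Kdm3a* 99.8), was at 481, 583 and 644 against 453, 439 and 561 (log2 difference 0.23), and *Kdm2a*, an H3K36 demethylase that binds CpG islands, was at 572, 625 and 608 against 640, 645 and 586 (-0.05). The remaining JmjC genes overlapped between the groups, with log2 differences of -0.27 for *Kdm2b*, -0.14 for *Kdm3b*, -0.14 for *Kdm4a*, -0.17 for *Kdm4b* and -0.03 for *Kdm7a*.

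Genes that carry such a name but whose activity on histones is disputed or lacking held the largest uncalled differences. *Kdm8* (also JMJD5), a JmjC protein, had a signal of 10, 12 and 11 in Sirt6mKO and of 25, 19 and 22 in control. *Setd4*, a SET domain protein, was at 12, 10 and 9 against 18, 26 and 18. Both had separate groups and log2 differences of -0.93 and -0.92, with adjusted p of 0.10 and 0.13 by limma-trend. These values rest on 12 to 26 reads per library for *Kdm8* and 10 to 36 for *Setd4*, and their 95% intervals, from -1.57 to -0.29 and from -1.61 to -0.24, are among the widest of the set. *Kmt2e* was at 1556, 1649 and 1621 against 1248, 1006 and 1499, with separate groups but scattered controls, and a log2 difference of 0.38 (adjusted p = 0.15, limma-trend). Without control replicate 3 it was 0.52 and passed, with an adjusted p of 0.041. *Kat14*, a subunit of the ATAC complex, was at 88, 87 and 90 against 98, 116 and 93, separate but with a log2 difference of only -0.20. *Setd3*, known as an actin histidine methyltransferase, *Setd5* and *Setd6* had log2 differences of 0.10, -0.06 and 0.13 with overlap.

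Some enzymes varied between libraries with the GC content of their transcripts. In 18 of 63, Sirt6mKO replicate 3 had the lowest signal of all 6 libraries, and these 18 had a median transcript GC content of 57.2%, against 48.3% for the other 45. Across the 63 genes, the log2 signal of replicate 3 relative to the mean of Sirt6mKO replicates 1 and 2 had a Pearson r of -0.62 and a Spearman rho of -0.5 with GC content. This is a description across genes that share libraries, not independent points. Such values were not particular to this library. The same Pearson r, each library against the other 2 of its group, was 0.54 for Sirt6mKO replicate 2 and -0.35 for control replicate 3, and the GC-richest 25% of all tested genes deviated from the 6-library mean by -0.13 on the log2 scale in control replicate 3 and by -0.08 in Sirt6mKO replicate 3, on average. Among the enzymes, the most negative in Sirt6mKO replicate 3 were *Setd1b* (-0.93), *Kmt5c* (-0.78), *Hdac7* (-0.77) and *Kmt2d* (-0.71). *Kmt2d*, which marks enhancers with H3K4 methylation, was at 1288, 1254 and 774 in Sirt6mKO and at 1395, 1179 and 1040 in control. *Dot1l* (-0.48) is among these 18 genes, and *Hdac4* (-0.14) too, whereas *Nsd1* is not. The GC-rich *Hdac5*, at 59.8%, was not low in replicate 3. The part of GC content in these values was not tested beyond removing its trend, under which *Hdac5* had a log2 difference of 0.88 and an adjusted p of 0.01 by limma-trend.

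**Figure D4:**
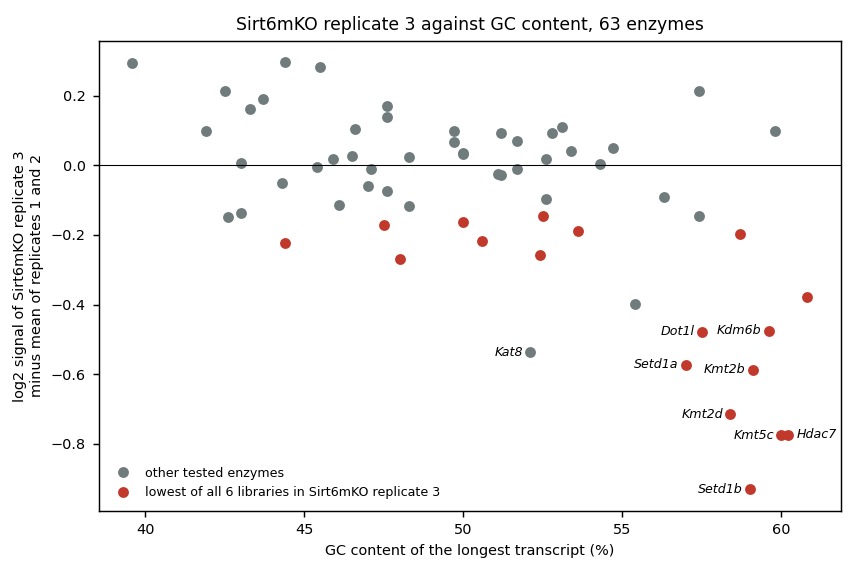
Log2 signal of Sirt6mKO replicate 3 minus the mean of replicates 1 and 2 against GC content of the longest transcript (%) for the 63 tested enzymes, with red points where replicate 3 is the lowest of all 6 libraries. The lowest points, *Setd1b*, *Kmt5c*, *Hdac7* and *Kmt2d*, gather at the GC-rich end. Control replicate 3, not drawn, had a Pearson r of -0.35 in the same comparison within its group.

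Other genes of the same machinery were read from lists of partners and related enzymes. Of 129 tested, 1 was higher and 3 were lower at the adjusted p (3.1% against 4.52% of all tested genes). No gene passed among 8 tested partners of PRC2, 22 of HDAC corepressors, 12 of the COMPASS H3K4 complexes, 29 of acetyltransferase complexes or 16 bromodomain and heterochromatin readers. At an unadjusted p under 0.05, limma-trend had 1, 2, 0, 2 and 2 genes of these lists in the same order. Of all tested genes, 18.1% were under that limit.

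*Mef2a*, one of the MEF2 factors that class IIa HDACs bind, was at 399, 339 and 449 in Sirt6mKO and at 240, 205 and 269 in control. It rose by 0.73 ± 0.14 on the log2 scale (SE, adjusted p = 0.011, limma-trend), but its adjusted p was 0.072 without Sirt6mKO replicate 1. *Mef2d* had a log2 difference of -0.23 with overlap. *Mef2c* was at 30, 28 and 5 against 2, 5 and 7, a log2 difference of 1.74 that did not pass (adjusted p = 0.15, limma-trend), and its lowest Sirt6mKO library was replicate 3, the one with the lowest myofiber sum. The part of myofiber RNA in these values was not tested.

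Among 32 further methyl and acetyl enzymes, 2 fell. *Nsd2*, a paralog of *Nsd1* with the same H3K36 activity, was at 191, 184 and 220 against 273, 268 and 335, a log2 difference of -0.55 ± 0.13 (SE, adjusted p = 0.033, limma-trend, 0.012 to 0.15 over the alternatives). *Nsd3*, the remaining paralog, was at 536, 537 and 508 against 557, 562 and 615, a log2 difference of -0.13 that did not pass (adjusted p = 0.56). *Smyd2*, a lysine methyltransferase of cytoplasm and nucleus, was at 45, 45 and 72 against 86, 109 and 91 (log2 difference -0.84, adjusted p = 0.039, limma-trend). *Sirt5*, a mitochondrial desuccinylase, was the only one of 7 sirtuins past the threshold, at 22, 27 and 27 against 44, 52 and 47 (log2 difference -0.89, adjusted p = 0.036, limma-trend). These calls were not stable. Without a filter on low values the adjusted p was 0.062 for *Nsd2*, 0.069 for *Smyd2* and 0.057 for *Sirt5* (limma-trend). *Nsd2* had an adjusted p of 0.15 without Sirt6mKO replicate 1, 0.14 without replicate 2, 0.053 without control replicate 2 and 0.097 without control replicate 3. With 1 library left out, *Smyd2* kept its call only without Sirt6mKO replicate 3 (0.013) and otherwise had 0.056 to 0.19, and *Sirt5* lost it without any 1 of the 6 libraries, at 0.056 to 0.16 (limma-trend).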

How the data were processed

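RNA-seq of 6 MuSC libraries was analysed. Per the labels, the submitters' processing notes name Trimmomatic 0.39, STAR 2.7.10a, Picard 2.25.5, featureCounts 2.0.2 and DESeq2 1.30.1 on mm10 (GRCm38). The paper's methods name Reaper, other versions and another library kit, and exclude reads on more than 1 gene. Whether strand was used in counting is not given in the sources used here. The deposited signal was made by the authors as reads divided by a size factor (0.558 to 1.372, recovered here from the gaps between values) and rounded, so tests for counts were not used.

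Values of log2(signal + 1) entered limma-trend (limma 3.58.1, R 4.3.3), for genes averaging at least 5, with Benjamini-Hochberg adjustment over 14227 genes. The procedure was tested on simulated data. The fold limit of 2 follows the study's methods. Fold changes on this scale understate low genes. Python 3.11.15 was used for tables and plots.

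The enzymes and lists were chosen with earlier results of these data known. Named genes are *Ezh1*, *Hdac4*, *Ep300* and their paralogs, genes past the adjusted p, the highest gene per kilobase of each role group, and genes with separate groups and a log2 difference of at least 0.5. Others were named after their values were seen. Positions came from GENCODE on GRCm38. Exons of 27 enzymes overlap another gene, among them *Hdac4*, *Hdac5*, *Ep300*, *Ezh2*, *Kmt2e*, *Kmt2c* and *Setd4*, and their values are uncertain to that extent. Alternatives covered scaling, filter, pseudocount (0.1 and 5), empirical Bayes, voom, a replicate block, a stricter adjusted p (0.01), each library left out and, added after seeing the data, removal of the GC trend.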

Additional observations from a re-analysis of the deposited data

How the results depend on the processing

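*Hdac5* was higher under every alternative, from 0.78 to 1.07 on the log2 scale, and lost the adjusted p of 0.05 only without Sirt6mKO replicate 2. Leaving out 1 library moved the number of enzymes higher at the adjusted p between 0 and 2, and past 2-fold as well between 0 and 1. The number lower was 1 (*Nsd1*) with robust empirical Bayes, 1 with voom on recovered reads and 1 with the GC trend removed, against 0. The median over the enzymes ran from -0.11 without Sirt6mKO replicate 2 to 0.0018 without Sirt6mKO replicate 3 as libraries were left out. Signs turned where differences were near 0. *Ep300* was at -0.0088 with upper quartile scaling and -0.012 with log2 CPM, *Crebbp* at -0.0061 and -0.0095, *Kat6a* at -0.0028 with log2 CPM, *Hdac2* at 0.00073 with median-ratio size factors and 0.0023 with a trimmed mean of log ratios, and *Hdac7* at 0.07 with voom. The cause was not tested. Of the named enzymes, the ranges with libraries left out crossed 0 for *Hdac2* (-0.067 to 0.097), *Ep300* (-0.054 to 0.073), *Kat6a* (-0.056 to 0.071), *Hdac7* (-0.25 to 0.24), *Ehmt2* (-0.2 to 0.018), *Kat2b* (-0.13 to 0.015), *Ezh2* (-0.26 to 0.035), *Kdm6b* (-0.28 to 0.0079) and *Crebbp* (-0.055 to 0.068). Whether the replicate numbers pair the samples was not tested. Deviations from the group means had correlations of 0.023, 0.066 and 0.188 for same-numbered libraries. For differently numbered libraries these ran from -0.129 to 0.073. With the replicate block, *Hdac5* kept 0.91 (limma, adjusted p = 0.0084) as the 1 enzyme called, and calls over all genes went from 643 to 814. These calls over all genes were 384 at a mean signal of at least 50, and 259 and 274 without Sirt6mKO replicates 1 and 2. Control levels per kilobase moved with the longest transcript for 20 of 25 named enzymes. Depth limits thinly covered enzymes such as *Suv39h2*, *Setd4*, *Kdm8* and *Setd6*, with 9 to 45 reads per library.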
